A study of Mus musculus with 14 samples.

Results

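The integrin genes that T cells use were examined in the mRNA of sorted spleen T cells from mice with chronic-phase (CP) and blast-crisis (BC) chronic myeloid leukemia (CML). The genes were chosen by name, as 6 α chains (Itga1, Itga4, Itga6, Itgae, Itgal and Itgav) and 4 β chains (Itgb1, Itgb2, Itgb3 and Itgb7), and all 10 were found among the 24091 genes of the deposited counts table. The CP CML group was 8 Mir142+/+BCR-ABL mice and the BC CML group 6 Mir142−/−BCR-ABL mice. Every mouse carried the SCLtTA/BCR-ABL transgenes, in which the SCL enhancer drives the tetracycline transactivator, and BCR-ABL was switched on by withdrawing tetracycline for 3 weeks. The mice were on the C57Bl/6j CD45.2 background, of both sexes and 6 to 10 weeks old. The groups differed in Mir142, which was deleted in every tissue of the BC CML mice and not in T cells alone, so the T cells of both groups also came from different disease settings. In each mouse 200000 T cells were sorted and 1 library was sequenced with paired reads. Library names carry a number that is the same within each group and differs between the groups. The labels do not say what it stands for, and whatever it marks cannot be told apart from genotype here.

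An integrin is a receptor made of an α chain and a β chain, and neither chain reaches the cell surface without a partner. On a resting T cell most integrins are folded in a state that binds ligand poorly. Signals from the T cell receptor or from chemokine receptors switch them on from inside the cell, through the small GTPase Rap1 and the tail-binding proteins talin and kindlin. The αL and β2 chains form LFA-1, which holds T cells to endothelium and to antigen-presenting cells through ICAMs. The α4 chain pairs with β1 to bind VCAM-1 and fibronectin, or with β7 to bind MAdCAM-1 on gut vessels. The αE chain, known as CD103, pairs only with β7, binds E-cadherin on epithelium and is induced by TGF-β. Because α4 and αE both use β7, and α1, α4, α6 and αv all use β1, the transcript level of an α chain has to be read beside that of its partners.

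Mir142, the deleted gene, gives rise to a pair of mature microRNAs, which lower the levels of mRNAs whose 3′UTR matches their seed. Their sequences are shown with the seed (bases 2 to 8) in capitals, as RefSeq gives them on chromosome 11 of GRCm38.p6, because matches to these bases were searched in the integrin 3′UTRs:
miR-142a-5p: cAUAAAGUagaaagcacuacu
miR-142a-3p: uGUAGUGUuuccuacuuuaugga

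The searched words were ACTTTATA for miR-142a-5p and ACACTACA for miR-142a-3p (8mers), and the 7-base words ACTTTAT and CTTTATA, and ACACTAC and CACTACA, where they did not lie inside an 8mer of the same microRNA. Only the transcript strand was searched, in the longest 3′UTR that GENCODE vM21 lists for each gene on this genome build. Of the 10 integrin genes, 4 held a match of any kind to either microRNA, beside 30.7% of the 11503 tested genes with a 3′UTR. The sites below are those of the genes that moved or that held an 8mer, with the match in capitals, 5′ to 3′:
Itgav, miR-142a-3p: tacacattACACTACAgttgactt
Itga4, miR-142a-5p: tttctacaACTTTATAcccattgc
Itga1, miR-142a-5p: ccagattaACTTTATgggaatat
Itgb1, miR-142a-5p: cgccttttCTTTATAaatccaac
Itga6, miR-142a-3p: aacacctcACACTACccaaagcc

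The Itgav site, an 8mer, covers chr2:83803779-83803786, plus strand, at bases 444 to 451 of a 3′UTR of 3581 bases. Of the 4 annotated 3′UTRs of Itgav, which run from 82 to 3581 bases, 2 held a match. An 8mer of miR-142a-3p was held by 3.04% of all 3′UTRs and by 5.69% of the 1231 whose length lay within 20% of that of Itgav. The 8mer of Itga4 covers chr2:79332995-79333002, plus strand, at bases 6380 to 6387 of a 3′UTR of 6508 bases. Its microRNA, miR-142a-5p, had an 8mer in 5.22% of all 3′UTRs and in 19.5% of the 328 of like length. Itga4 also held 4 matches of 7 bases to miR-142a-5p and 3 to miR-142a-3p, so the gene with most matches had a very long 3′UTR.

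In Itga1 the match of 7 bases covers chr13:114957716-114957722, minus strand, which lies outside the span listed with the counts (114958081 to 115101964). The 3′UTR of Itga1 has 6994 bases, and 73.1% of the 268 of like length held a match to miR-142a-5p. The Itgb1 match covers chr8:128732717-128732723, plus strand, at bases 629 to 635 of 1112. Of the 2 annotated 3′UTRs of Itgb1, of 373 and 1112 bases, 1 held a match. Among the 1622 3′UTRs of like length, 18.4% held a match to miR-142a-5p. For Itga6 the longest annotated 3′UTR (1310 bases) held no match, but 2 of its 3 annotated 3′UTRs, of 927 and 756 bases, shared the match shown above at chr2:71856043-71856049, plus strand. No annotated 3′UTR of Itgae, Itgal, Itgb2, Itgb3 or Itgb7 held these letters. These matches describe the sequence and are not measured binding sites.

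The libraries held between 15703702 and 19914531 counted reads in CP CML and between 16145537 and 19399720 in BC CML. Mir142 had 302 to 650 reads in each CP CML library and 0 reads in each BC CML library. The mature microRNA is not captured in mRNA libraries, so these are reads of the primary transcript. The T cell label held for both groups. Of 14 T cell identity genes, 11 had a row in the table, and their summed level was 3678.1 to 4123.8 CPM in CP CML and 4163.6 to 4614.5 in BC CML, led by Lck, the kinase next to the T cell receptor (777 and 848 CPM). By the test given below, 6 of these 11 genes were higher in BC CML and 4 were not called, Lck among them. The other, Cd247, was lower in every BC CML mouse than in any CP CML mouse (315 and 252 CPM). Over all genes tested 65.2% were called. CPM is the normalised read count, scaled to the size of the library after TMM normalization, edgeR's correction for library composition. Genes of other cell types were also present, and the values of their marker lists are given with the results.

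All 10 integrin genes passed the filter on low counts and were tested. Differences between BC CML and CP CML were tested by edgeR's quasi-likelihood test over 12248 genes with Benjamini-Hochberg adjustment, and a gene was called at an adjusted p below 0.05. Of the 10 genes, 7 were higher in BC CML (Itga1, Itgae, Itgal, Itgav, Itgb1, Itgb2 and Itgb7), 2 were lower (Itga6 and Itgb3) and Itga4 was not called. Of all genes tested 65.2% were called, 32.6% higher and 32.7% lower, so a call by itself was common in this comparison. In 6 integrin genes the lowest BC CML value exceeded the highest CP CML value, and in 1, Itga6, the reverse held; over all genes these shares were 19.3% and 17.6% (36.9% in either direction). The median log2 fold change of the 10 genes was 0.38, and that of all genes tested −0.01. Itga1, Itga6 and Itgav were called and moved by 1 or more in log2 units, as did 12.9% of all genes tested. In bulk RNA, fewer cells that carry a transcript and less of the transcript in each cell cannot be told apart, and surface protein was not measured in these files.

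**Figure D1:**
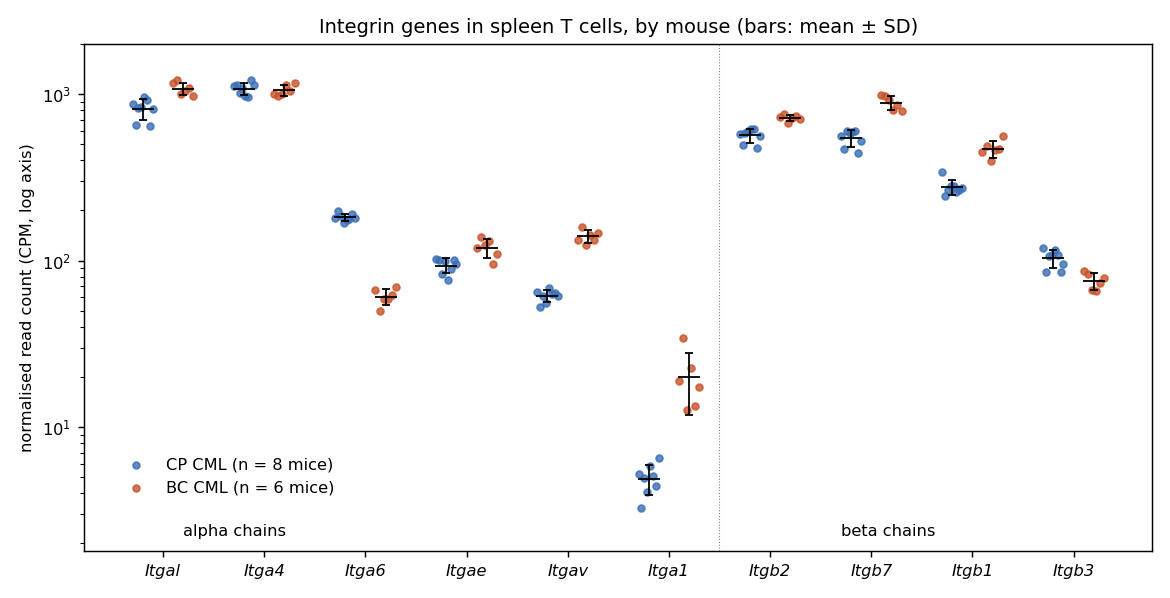
Normalised read count (CPM, log axis) of the 10 integrin genes in each mouse, with α chains to the left and β chains to the right; each point is 1 mouse (8 CP CML in blue, 6 BC CML in orange) and the bars give the mean ± SD. The orange points of Itga6 lie between 50.0 and 69.3 CPM, below all blue points, those of Itga1 and Itgav lie above theirs, and the groups of Itga4 overlap.

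Itgal encodes the αL chain of LFA-1 and is listed on the plus strand of chr7:127296260-127335137 (mm10). Its level in the CP CML mice ran from 646 to 967 CPM (median 828) and in the BC CML mice from 971 to 1208 CPM (median 1064). The lowest BC CML mouse thus lay just above the highest CP CML mouse. The means were 816 ± 114 CPM (SD, n = 8) and 1079 ± 91.3 CPM (SD, n = 6), a log2 fold change of 0.40 ± 0.09 (SE, edgeR quasi-likelihood test, adjusted p = 0.000549). Itgb2, which encodes the β2 chain of LFA-1, is listed at chr10:77530348-77565674, plus strand. Its level ran from 473 to 619 CPM in CP CML (median 582) and from 673 to 761 CPM in BC CML (median 723), with a log2 fold change of 0.35 ± 0.06 (SE, edgeR quasi-likelihood test, adjusted p = 4.4e-05). Both chains of LFA-1 therefore rose by nearly the same factor, 1.32-fold for Itgal and 1.27-fold for Itgb2.

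Itga4, the chain shared by α4β1 and α4β7, is listed at chr2:79255426-79333114, plus strand, and had the highest CPM of the 10 genes in CP CML. It had 966 to 1208 CPM in CP CML (median 1104) and 973 to 1164 CPM in BC CML (median 1020). The groups overlapped throughout, and the log2 fold change was −0.04 ± 0.06 (SE, edgeR quasi-likelihood test, adjusted p = 0.587), with a 95% interval of −0.16 to 0.09. Both β partners of α4 rose while Itga4 itself was not called.

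Itgb1, the common β chain of the receptors for matrix and VCAM-1, is listed at chr8:128685654-128733579, plus strand. It had 246 to 341 CPM in CP CML (median 270) and 394 to 563 CPM in BC CML (median 465), and the groups did not overlap. The log2 fold change was 0.77 ± 0.07 (SE, edgeR quasi-likelihood test, adjusted p = 1.0e-07), or 1.70-fold. Itgb7, the β chain of gut homing and of CD103, is listed at chr15:102215995-102231935, minus strand. Its level was 441 to 601 CPM in CP CML (median 570) and 794 to 988 CPM in BC CML (median 891), again without overlap. The log2 fold change was 0.71 ± 0.07 (SE, edgeR quasi-likelihood test, adjusted p = 2.8e-07), or 1.63-fold.

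Whether the balance between the β partners of α4 moved was tested directly, as the difference of log2 CPM between Itgb1 and Itgb7 in each mouse. This difference was −0.98 ± 0.19 in CP CML (SD, n = 8) and −0.92 ± 0.26 in BC CML (SD, n = 6), so Itgb7 had more reads than Itgb1 in every mouse. The groups differed by 0.06 (95% interval −0.20 to 0.32; exact two-sided permutation test over every assignment of the mice to the groups, p = 0.644, where the smallest p this design can give is 0.000333). A shift of the balance larger than 0.32 toward Itgb1 or 0.20 toward Itgb7 on the log2 scale thus lay outside the interval, and smaller shifts were not resolved with these mice.

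Itgae, which encodes the αE chain (CD103), is listed at chr11:73090595-73147449, plus strand. It had 76.8 to 102 CPM in CP CML (median 97.1) and 95.4 to 138 CPM in BC CML (median 121). The highest 5 BC CML mice lay above all CP CML mice and the lowest fell within their range. The means were 93.3 ± 9.54 CPM (SD, n = 8) and 119 ± 15.3 CPM (SD, n = 6), with a log2 fold change of 0.36 ± 0.08 (SE, edgeR quasi-likelihood test, adjusted p = 0.00102). Of the 7 integrin genes that rose, Itgae was the only one whose groups overlapped. Itgal, Itgb2, Itgb1, Itgb7 and Itgae rose in libraries where the summed levels of the memory and effector (920 to 1151 and 1756 to 2489 CPM), NK (246 to 297 and 694 to 914 CPM) and myeloid (64.1 to 707 and 828.6 to 2226 CPM) lists were also higher in BC CML without overlap. The β2 chain is shared by all these cells, and the part of these lists in the 5 results was not tested. The naive T cell list and Foxp3 were lower in BC CML and Cd8a was higher, each without overlap. Their part in the Itgae result was not tested either.

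Itga1, the α1 chain of the collagen receptor found on memory T cells that stay in tissues and on NK cells, is listed at chr13:114958081-115101964, minus strand. It was the integrin gene with the lowest level here, with 3.24 to 6.48 CPM in CP CML (53 to 103 reads, median 5.02 CPM) and 12.6 to 34.4 CPM in BC CML (241 to 552 reads, median 18.1 CPM). The BC CML mice were spread widely, with BC CML mouse 2 at the top, yet all were above the CP CML mice. The log2 fold change of 2.02 ± 0.21 (SE, edgeR quasi-likelihood test, adjusted p = 5.3e-07), 4.05-fold, was the largest among the 10 genes. It was 1.79 to 2.12 when each mouse was left out in turn.

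Itga6, the α6 chain of a laminin receptor, is listed at chr2:71786939-71858427, plus strand. It fell from 168 to 198 CPM in CP CML (median 181) to 50.0 to 69.3 CPM in BC CML (median 60.4). The lowest CP CML mouse had more than the highest BC CML mouse by a wide margin, and the spread within each group was small. The means were 182 ± 9.05 CPM (SD, n = 8) and 60.8 ± 6.80 CPM (SD, n = 6), a log2 fold change of −1.58 ± 0.06 (SE, edgeR quasi-likelihood test, adjusted p = 4.2e-13), or 2.99-fold lower in BC CML. Itga6 fell beside the naive T cell list, of which all 7 genes were lower in BC CML and whose summed level was 4889.8 to 6237.8 CPM in CP CML and 2683.2 to 3852.4 CPM in BC CML. The most abundant gene of that list, Tcf7, a transcription factor of naive and stem-like T cells, had 1971 and 1239 CPM, and its part in the Itga6 result was not tested.

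Itgav encodes the αv chain, which binds matrix proteins and latent TGF-β, and is listed at chr2:83724397-83806917, plus strand. It rose from 52.5 to 68.1 CPM in CP CML (median 62.2) to 125 to 159 CPM in BC CML (median 138). All BC CML mice lay well above the CP CML mice, and the log2 fold change was 1.19 ± 0.06 (SE, edgeR quasi-likelihood test, adjusted p = 1.4e-11), or 2.28-fold. This is the gene whose 3′UTR held the 8mer of miR-142a-3p shown above. Itga4, which held an 8mer of miR-142a-5p, was not called. Itgav also rose beside the memory and effector, NK and myeloid lists, which were higher in BC CML without overlap. The part of the match and of these lists in the Itgav result was not tested. Itgb3, the β3 partner of αv, is listed at chr11:104608000-104670471, plus strand, and went the other way from Itgav. Itgb3 had 85.4 to 120 CPM in CP CML (median 107) and 65.7 to 86.7 CPM in BC CML (median 76.0), so the groups touched at their ends. Its log2 fold change was −0.45 ± 0.09 (SE, edgeR quasi-likelihood test, adjusted p = 0.000272), or 1.37-fold lower. Platelets also carry β3. The summed level of the 9 megakaryocyte and platelet genes was 3.658 to 6.602 CPM in CP CML and 3.552 to 7.662 CPM in BC CML, led by Itga2b, the platelet partner of β3. Itga2b was lower in BC CML, as Itgb3 was (4.38 and 2.76 CPM, log2 fold change −0.66), and Pf4 and Ppbp were at no more than 0.126 and 0.218 CPM in CP CML and 0.514 and 0.977 CPM in BC CML. The part of platelets in the Itgb3 result was not tested.

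Levels were compared between genes as RPKM, the CPM divided by the gene length in kilobases that the authors list. In CP CML the order of mean RPKM was Itgb7 (205), Itgb2 (192), Itgal (154), Itga4 (83.8), Itgb1 (64.9), Itga6 (21.8), Itgae (20.6), Itgb3 (17.5), Itgav (6.36) and Itga1 (0.529). The neighbours Itgb7 and Itgb2, Itgb2 and Itgal, Itga4 and Itgb1, Itga6 and Itgae, and Itgae and Itgb3 overlapped between mice. In BC CML the order was Itgb7 (335), Itgb2 (245), Itgal (203), Itgb1 (110), Itga4 (81.7), Itgae (26.3), Itgav (14.5), Itgb3 (12.9), Itga6 (7.28) and Itga1 (2.14), and only Itgav and Itgb3 overlapped. The 3 most abundant chains kept their order, Itgb1 and Itga4 exchanged places, and Itga6 went from the sixth to the ninth place. Lengths are those of the listed gene model, so an isoform with a shorter 3′UTR would have a higher level per length than given here.

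Within each mouse the RPKM of an α chain was set beside that of its β partner, as a description with no test. The ratio of Itgal to Itgb2 had a median of 0.786 in CP CML and 0.819 in BC CML, with overlapping groups, so the chains of LFA-1 stayed close in proportion. Itga4 to Itgb1 went from a median of 1.27 (1.09 to 1.52) to 0.732 (0.663 to 0.837). Itga4 to Itgb7 went from 0.400 (0.332 to 0.566) to 0.236 (0.207 to 0.303). For both partners of α4 the groups did not overlap, and the β chain had gained on the α chain.

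Itgae to Itgb7 was 0.103 in CP CML and 0.0801 in BC CML with overlap, so the rise of Itgae was not larger than that of its only partner. Itga6 to Itgb1 had medians of 0.345 and 0.0661, and this was the pair whose ratio moved most, by −2.35 on the log2 scale. Itgav to Itgb3 went from 0.356 (0.313 to 0.456) to 1.14 (0.938 to 1.33): Itgav was below Itgb3 in every CP CML mouse and above it in 5 of 6 BC CML mice. The ratios of Itga1 and Itgav to Itgb1 also rose without overlap, from 0.00810 to 0.0169 and from 0.101 to 0.134. Since Itgb1 pairs with several α chains, no ratio gives the number of receptors of a kind.

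**Figure D2:**
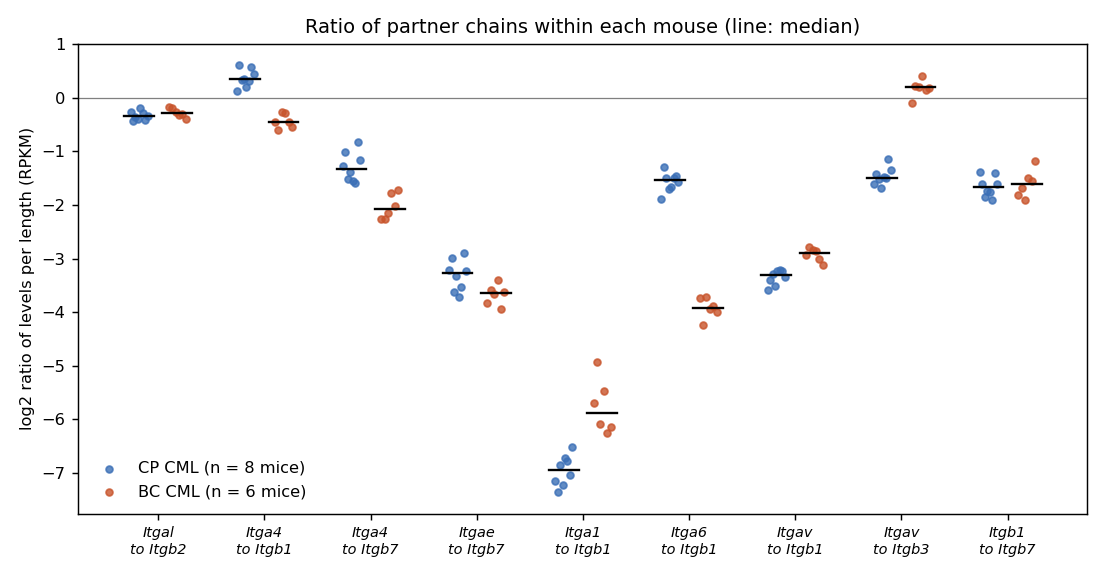
Ratio of the RPKM of partner chains within each mouse on the log2 scale; each point is 1 mouse (8 CP CML in blue, 6 BC CML in orange), the lines are group medians and 0 means equal levels. Itga6 to Itgb1 fell from a median of −1.53 to −3.92, Itgav to Itgb3 rose from −1.49 to 0.20, and the groups overlapped for Itgal to Itgb2, Itgae to Itgb7 and Itgb1 to Itgb7.

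Genes that control Itgae were examined next, since TGF-β induces it through SMAD proteins and RUNX3. Of 16 listed regulators, 15 had a row and passed the filter, and 8 were higher and 6 lower in BC CML (edgeR quasi-likelihood test), with a median log2 fold change of 0.18. Over all genes tested 65.2% were called, in near equal shares higher and lower, so calls in both directions are not particular to these regulators. Among the receptors, Tgfbr1, the signalling kinase, rose from 77.1 ± 3.23 to 132 ± 8.52 CPM, while Tgfbr2, the ligand-binding subunit, fell from 387 ± 19.5 to 334 ± 16.2 CPM (SD, n = 8 and 6; log2 fold changes 0.78 and −0.21). Among the SMADs, Smad3, which acts on Itgae, rose by 0.90, Smad2 fell by 0.23, and the inhibitory Smad7 fell by 0.37 on the log2 scale with groups that overlapped.

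The transcription factors of the list also split. Runx3, which promotes Itgae in CD8 T cells, rose by 0.45 on the log2 scale with overlapping groups, and its relative Runx1 fell by 0.61 without overlap. Eomes and Tbx21, T-box factors known to hold back CD103 in resident memory cells, were both higher, from 77.6 to 257 CPM and from 38.5 to 83.8 CPM (log2 fold changes 1.73 and 1.12). Eomes is also a gene of the NK cell list, whose summed level was higher in BC CML without overlap. Ahr, a factor of tissue-resident lymphocytes, rose by 1.56, and Prdm1, which encodes Blimp-1, fell by 0.88 on the log2 scale. Of the SMAD co-repressors, Ski fell by 0.39 on the log2 scale and Skil rose by 0.18 with overlapping groups. None of these values was tied to Itgae by a test.

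The machinery that switches integrins on and ties them to actin was given by a list of 40 genes, of which 36 were tested. BC CML was higher in 13, lower in 15 and not called in 8, with a median log2 fold change of 0.05, beside 32.6% higher and 32.7% lower over all genes tested. Without overlap, 9 were higher and 12 lower, beside 19.3% and 17.6% over all genes tested. The summed level was 10914.0 to 11316.9 CPM in CP CML and 9900.2 to 10298.7 CPM in BC CML, so it was lower in every BC CML mouse. Tln1, which encodes talin, the final activator of integrin tails, was not called (1104 ± 46.8 and 1057 ± 34.0 CPM, SD, n = 8 and 6, log2 fold change −0.06 with a 95% interval of −0.14 to 0.02). Fermt3, the kindlin of blood cells, was not called either (251 ± 8.66 and 259 ± 9.84 CPM, log2 fold change 0.04 with a 95% interval of −0.03 to 0.12). For both genes the intervals left room for changes of at most 0.14 on the log2 scale.

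Upstream of talin, the Rap1 genes moved both ways. Rap1b, the Rap1 GTPase with the most reads here, fell from 474 ± 12.1 to 419 ± 16.5 CPM (SD, n = 8 and 6), by 0.18 on the log2 scale without overlap. Rassf5, which encodes RAPL, the Rap1 effector that binds the αL tail, fell from 411 ± 14.8 to 291 ± 7.41 CPM, by 0.50 on the log2 scale (edgeR quasi-likelihood test, adjusted p = 4.9e-10). Rapgef6, a Rap1 activator, fell by 0.74, and Sipa1l1, a Rap1 inactivator, by 0.81 on the log2 scale. Rap1a, the other Rap1 GTPase, rose from 144 to 165 CPM (log2 fold change 0.20, no overlap). Rasgrp2, which encodes the Rap1 exchange factor CalDAG-GEFI, was lower with overlap (213 and 181 CPM, log2 fold change −0.23), a call that was lost with any of 5 of the 14 mice left out. Rasgrp1, known mainly as a Ras exchange factor, rose from 487.5 to 596 CPM (0.29, no overlap). The Rap1 activators Rapgef1 (0.07) and Rapgef2 (−0.08) and the inactivators Sipa1 (0.16) and Rap1gap (0.37) were not called.

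The largest change of the list was in Actn1, α-actinin, which links β tails to actin. It fell from 438 to 502 CPM in CP CML (median 474) to 112 to 141 CPM in BC CML (median 116), and the log2 fold change was −1.96 ± 0.06 (SE, edgeR quasi-likelihood test, adjusted p = 6.4e-15), or 3.88-fold lower. Tln2, a second talin at a very low level, rose from 0.540 to 1.70 CPM (log2 fold change 1.65). Rsu1, a partner of the adaptor PINCH, and Ptk2, focal adhesion kinase, fell by 0.63 and 0.55 on the log2 scale. Rapgef6, Sipa1l1, Actn1, Tln2, Rsu1 and Ptk2 were the 6 genes of the list with the largest changes among those called without overlap.

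**Figure D3:**
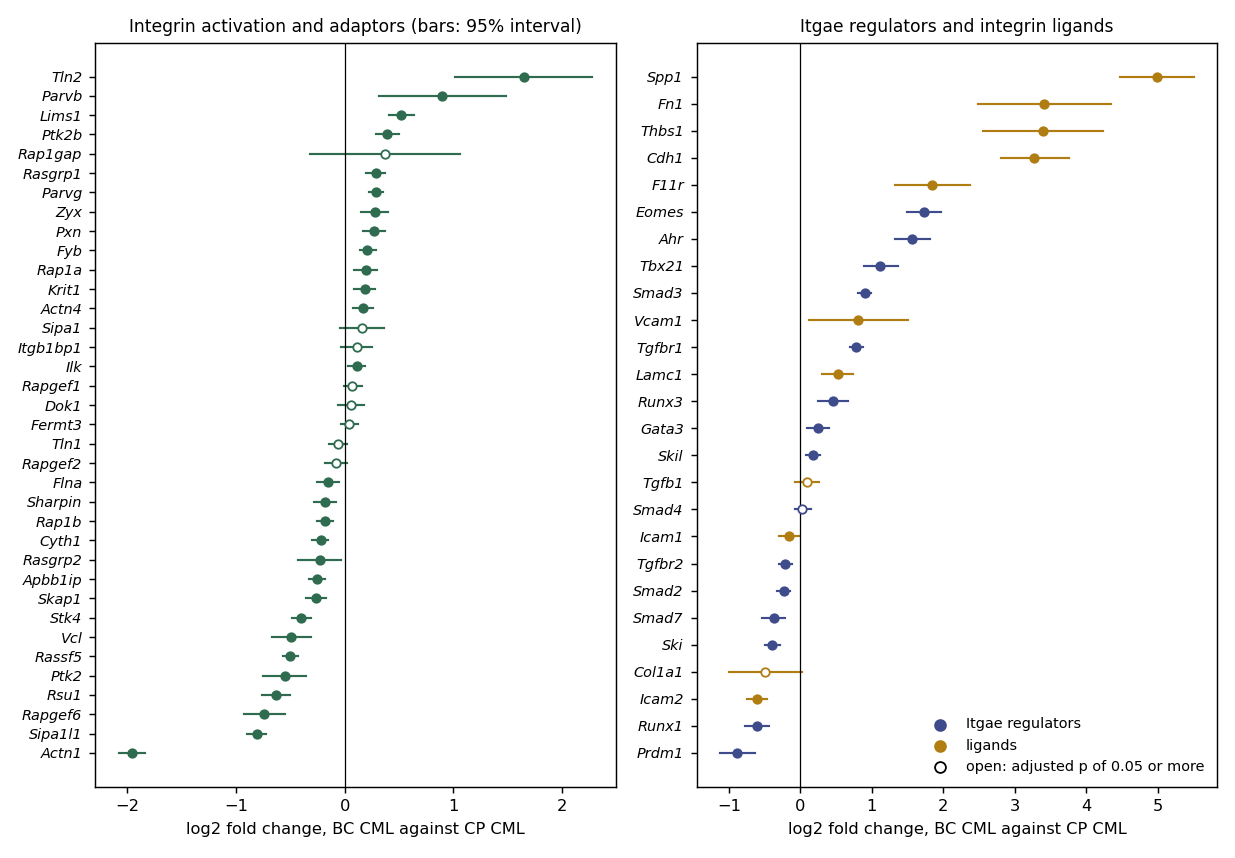
Log2 fold change of BC CML against CP CML with 95% intervals for the 36 tested genes of integrin activation (left panel) and for 15 Itgae regulators and 11 integrin ligands (right panel); open points have an adjusted p of 0.05 or more. Actn1 stands apart at the lower end of the activation list at −1.96, Tln1 and Fermt3 lie near 0, and Spp1 leads the ligands at 4.99.

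Transcripts of integrin ligands were sought in the same libraries. Of 18 listed ligand genes 11 were tested, with 7 higher and 2 lower in BC CML and a median log2 fold change of 0.81, beside 32.6% higher and 32.7% lower over all genes tested. Spp1, which encodes osteopontin, a ligand of αv and α4 integrins, rose from 0.357 to 0.858 CPM in CP CML (7 to 14 reads) to 9.41 to 28.6 CPM in BC CML (183 to 529 reads), giving a log2 fold change of 4.99 ± 0.24 (SE, edgeR quasi-likelihood test, adjusted p = 1.6e-11). Fn1, fibronectin, rose by 3.41 and Thbs1, thrombospondin, by 3.39 on the log2 scale. Macrophages express these matrix genes strongly, and they rose beside the myeloid list, of which 11 of 12 genes were higher and whose summed level was 64.1 to 707 CPM in CP CML and 828.6 to 2226 CPM in BC CML. That list was led by S100a9, a neutrophil gene (67.5 and 284 CPM), and no marker of it was at 0 in every mouse. Its 1 gene that was not called was Csf1r, the macrophage growth factor receptor (45.3 and 59.0 CPM, log2 fold change 0.38). Its part in the ligand results was not tested.

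Cdh1, E-cadherin, the ligand of CD103, rose from 0.702 to 3.21 CPM in CP CML to 12.02 to 19.3 CPM in BC CML, giving a log2 fold change of 3.27 ± 0.22 (SE, edgeR quasi-likelihood test, adjusted p = 1.1e-09). CP CML mouse 8, the highest CP CML mouse for Cdh1, also had the highest myeloid (707 CPM), NK (297 CPM), memory and effector (1151 CPM) and basophil and mast cell (12.5 CPM) sums of its group, and the part of these cells in the Cdh1 result was not tested. F11r, the LFA-1 ligand JAM-A, rose by 1.84, Lamc1, a laminin chain, by 0.52 and Vcam1 by 0.81 on the log2 scale, the last with wide overlap (57.5 to 225 CPM in BC CML). Of the ICAMs that LFA-1 binds, Icam2 fell from 40.0 ± 2.62 to 26.3 ± 3.07 CPM (SD, n = 8 and 6; log2 fold change −0.60, no overlap) and Icam1 by 0.16 on the log2 scale. The calls of Vcam1 and Icam1 were near the threshold and were lost with any of 8 and 9 of the 14 mice left out. Col1a1 (1.07 and 0.763 CPM) and Tgfb1 (107 and 114.5 CPM) were not called. Madcam1, the ligand of α4β7, had at most 3 reads in any library and was not tested.

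The summed level of the integrin chains outside the 10 genes was 80.9 to 116.5 CPM in CP CML and 153 to 292 CPM in BC CML. Of 17 other chains 14 were tested, with 9 higher and 3 lower in BC CML and a median log2 fold change of 0.72; in 5 of the 9 and 2 of the 3 the groups did not overlap. Over all genes tested 65.2% were called, and 19.3% were higher and 17.6% lower without overlap. Itgax (CD11c) rose from 6.06 to 12.8 CPM in CP CML to 29.9 to 110 CPM in BC CML, giving a log2 fold change of 2.74 ± 0.26 (SE, edgeR quasi-likelihood test, adjusted p = 4.8e-07). Itgam (CD11b) rose from 10.7 ± 3.96 to 29.9 ± 12.9 CPM and Itgad from 20.6 ± 4.32 to 35.6 ± 20.1 CPM (SD, n = 8 and 6), both with overlap. The call of Itgad was lost without the filter on low counts and with any of 7 of the 14 mice left out, and its log2 fold change of 0.78 was 0.49 without BC CML mouse 2. These 3 α chains pair with β2 and are known from myeloid cells, NK cells and some activated T cells.

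They rose beside the myeloid list above and beside the NK cell list, of which all 6 tested genes were higher and whose summed level was 246 to 297 CPM in CP CML and 694 to 914 CPM in BC CML, led by Nkg7, a granule gene that cytotoxic T cells share (137 and 370 CPM). The NK gene Ncr1, which T cells mostly lack, was at 2.61 ± 0.953 and 10.5 ± 6.00 CPM (SD, n = 8 and 6). Of the 10 genes of the memory and effector T cell list 9 were higher, and S100a4 was not called (42.5 and 32.3 CPM, log2 fold change −0.40), with summed levels of 920 to 1151 CPM in CP CML and 1756 to 2489 CPM in BC CML, led by Il2rb (518 and 954 CPM). BC CML mouse 2 had the highest sum of the other integrin chains (292 CPM), the highest Itga1 and the highest memory and effector sum, and its NK sum (896 CPM) was close to the highest (914 CPM, BC CML mouse 3). It also had the highest sum of the γδ T cell genes with a row (25.3 CPM), led by Blk, a kinase that B cells also carry. Next was BC CML mouse 6 (16.9 CPM). BC CML mice 2 and 6 also had the highest B cell sums (246 and 427 CPM), and mouse 6 had the highest myeloid sum. The part of these lists in Itga1, Itgax, Itgam and Itgad was not tested.

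Among the remaining chains, Itga8 had 0 reads in 6 CP CML libraries, 1 read in each of the other two and 12 to 51 reads in the BC CML libraries, a ratio of 86.8 with a counting interval of 23.6 to 724 (exact binomial, counting error only). Itgb5, an αv partner, rose from 3.08 ± 0.928 to 11.3 ± 4.03 CPM (SD, n = 8 and 6; log2 fold change 1.86) and Itgb2l, a relative of Itgb2, by 2.21 on the log2 scale. Both rose beside the myeloid list, whose part in these results was not tested. Itga3, Itga9 and Itga2 were higher by 0.91, 0.66 and 0.33; Itga2 passed narrowly (edgeR quasi-likelihood test, adjusted p = 0.0497) and lost its call with any of 10 of the 14 mice left out. The αv partners diverged, since Itgb8, the β chain that activates latent TGF-β with αv, fell from 4.88 ± 1.00 to 1.34 ± 0.526 CPM (log2 fold change −1.86, no overlap), as did Itgb3.

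Itga7, a laminin receptor chain like Itga6, fell from 3.51 to 6.62 CPM in CP CML to 0.0555 to 0.374 CPM in BC CML (1 to 7 reads), giving a log2 fold change of −4.18 ± 0.26 (SE, edgeR quasi-likelihood test, adjusted p = 2.3e-10). Itga3, which also binds laminin, was higher, so the laminin-binding chains did not move in a single direction. Itga2b, the platelet partner of β3, fell by 0.66 on the log2 scale at a level of 4.38 and 2.76 CPM. Itga5 (7.00 and 7.39 CPM) and Itga10 (4.78 and 4.83 CPM) were not called, and Itga11, Itgb4 and Itgb6 had too few reads to be tested.

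**Figure D4:**
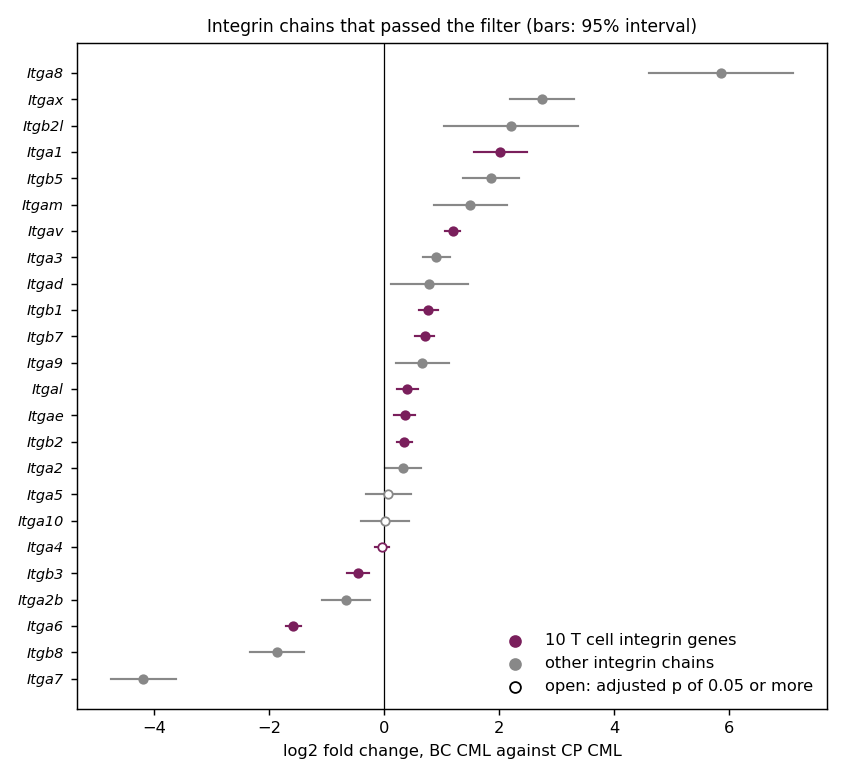
Log2 fold change of BC CML against CP CML for the 24 integrin chains that passed the filter, with 95% intervals; purple points are the 10 T cell integrin genes, grey points the other chains, and open points have an adjusted p of 0.05 or more. The chains spread from Itga7 at −4.18 to Itga8 at 5.86, a fitted value that rests on 2 CP CML reads, while the 10 genes spread from Itga6 at −1.58 to Itga1 at 2.02.

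Of 5 genes of the CD4 and CD8 lineages 1 was higher, 1 lower and 3 not called. Cd8a, the CD8α co-receptor, rose from 689 ± 64.3 to 1263 ± 160 CPM (SD, n = 8 and 6) and Cd4 fell from 404 ± 25.2 to 243 ± 45.8 CPM, while Cd8b1 (436 and 457 CPM), Zbtb7b, the CD4 lineage factor (93.7 and 102 CPM), and Cd40lg (33.7 and 28.2 CPM) were not called. Of 6 regulatory T cell genes 2 were higher, among them Ikzf2, the gene of that list with the most reads (203 and 312 CPM). The 3 that were lower, all without overlap, were the defining factor Foxp3, which fell from 94.2 to 28.5 CPM (log2 fold change −1.73), Ctla4, from 65.5 to 25.9 CPM (−1.34), and Tnfrsf4, from 31.7 to 20.3 CPM (−0.64). Of 7 B cell genes 6 were higher in BC CML, with a median log2 fold change of 1.32. Their sum, led by Ms4a1 (17.4 and 54.1 CPM), overlapped between groups (38.9 to 147 CPM and 72.5 to 427 CPM). The basophil and mast cell list, led by Kit, was at 5.24 to 12.5 CPM in CP CML and higher in every BC CML mouse, at 19.4 to 52.5 CPM. Most of this sum in BC CML was Kit (3.77 and 25.4 CPM), which progenitors also carry; of the 5 tested genes Kit and Cpa3 were higher, and Mcpt8 (log2 fold change 0.27), Gata2 (−0.14) and Prss34 (0.01) were not called. The groups overlapped for the erythroid list (15.4 to 63.0 and 42.7 to 72.7 CPM), the dendritic cell list (1.38 to 9.17 and 2.99 to 18.1 CPM) and the megakaryocyte and platelet list given above. Of 6 γδ T cell genes 2 had a row and neither was called. CD103, α1, α4 and β1 differ between such subsets in healthy mice, and the part of the subset lists in the integrin results was not tested.

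**Figure D5:**
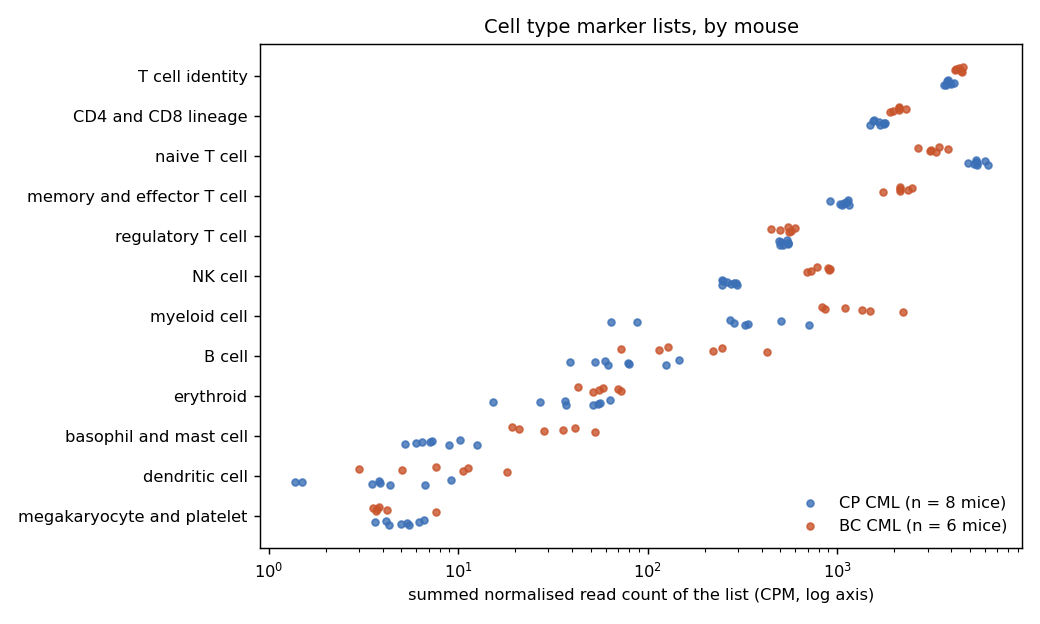
Summed normalised read count (CPM, log axis) of 12 cell type marker lists in each mouse; each point is 1 mouse (8 CP CML in blue, 6 BC CML in orange). The groups separate for the naive list (CP CML higher) and for the T cell identity, CD4 and CD8, memory and effector, NK, myeloid, and basophil and mast cell lists (BC CML higher, the last with 2 of 5 tested genes called), and the megakaryocyte and platelet list reaches at most 7.66 CPM.

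For each integrin gene, the genes with the most similar pattern over the 14 mice were found by the root mean square difference of centred log2 CPM among 9161 genes with an average log2 CPM of at least 3. The closest to Itga1 were Cd200r4, Osbpl3 and Klre1 (0.23 to 0.28), and Klre1 encodes an NK cell receptor. The closest to Itga6 were Gmfg, Il6ra and Rflnb (0.10 to 0.12), where Il6ra is the IL-6 receptor of naive T cells. Itgav was closest to Gna11, Tmem59 and Gfod1 (0.10 to 0.11), Itgb1 to Spred1, Trim59 and Cltc (0.10 to 0.12) and Itgb3 to Zmynd8, Pex6 and Ikbke (0.11).

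Itgae was closest to Manea, Ikzf3 and Sec61a2 (0.10 to 0.12), where Ikzf3 encodes the lymphoid factor Aiolos. Itgb7 was closest to Phf21a, Gbp5 and Thy1 (0.08 to 0.09), the last a T cell surface antigen. The genes closest to Itgal were Syvn1, Parp10 and Ppip5k1 (0.05 to 0.07), those to Itgb2 Gnptg, Stk16 and Sirt2 (0.05 to 0.06) and those to Itga4 Specc1l, Eny2 and Zfp655 (0.04 to 0.05). No integrin gene was among the closest of another. With few mice, likeness is set mainly by the fold change between groups, and these names are a description only.

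Reads of overlapping genes cannot be told apart where counting ignores strand, and the strand setting was not stated in the sources used here. Gsg2 lies within Itgae on the other strand (9.51 and 12.2 CPM, log2 fold change 0.36, the same as that of Itgae). Cerkl overlaps the end of Itga4 on the other strand (4.38 and 2.42 CPM), Pelo lies within Itga1 on the same strand (11.5 and 12.4 CPM, log2 fold change 0.11), and the span listed for Zfp553 covers Itgal (31.2 and 25.5 CPM, log2 fold change −0.29). Pelo itself was not called.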

How the data were processed

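Raw read counts per gene were deposited by the authors, after adapter trimming (Trimmomatic), polyA trimming (FASTP), alignment to mm10 (STAR 2.6.0) and counting (HTSeq-count 0.11.1); the annotation release and strand setting are not given in the sources used here. Here counts were analysed with edgeR 4.0.16 in R 4.3.3: filterByExpr by group (12248 genes, 99.9% of reads), TMM, and the robust quasi-likelihood test between the groups, which had no other term, at a Benjamini-Hochberg adjusted p of 0.05. The study's methods name the likelihood ratio test, which was run as an alternative. Others were a filter of over 1 CPM in 6 or more samples, no filter, scaling by RLE or by library size only, DESeq2 1.42.0, a replicate block, and leaving out each mouse. Log2 CPM used a prior count of 2 (0.5 as an alternative). RPKM was computed from the authors' gene lengths. The test was checked on simulated data. The lowest chi-square per degree of freedom between 2 libraries of a group was 2.99, so none was a repeat. Replicate numbers come from the titles and name different mice. A floor of 3 reads in a BC CML library is 0.155 to 0.186 CPM.

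The integrin genes and the gene lists were chosen with earlier results of these data known. Genes were named by a rule: the 10 integrin genes, Mir142, the other chains and ligands that passed the filter, 5 Itgae regulators and others called without overlap, 10 activation genes, the gene of each marker list with the most reads, and the 3 genes most like each integrin gene. Cd4, Cd8b1, Cd247, Rap1a, Rasgrp1, Rasgrp2, Rapgef1, Rapgef2, Sipa1, Rap1gap, Foxp3, Ctla4, Tnfrsf4, S100a4, Csf1r, Zbtb7b, Cd40lg, Skil, Cpa3, Mcpt8, Gata2, Prss34, Pf4, Ppbp, Ncr1, Madcam1, the genes that overlap an integrin gene and the untested chains were named after their values were seen. The other experiments of the study were not analysed here.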

Additional observations from a re-analysis of the deposited data

Results flagged for a closer look

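In 211 groups of values, 13 held a mouse that stood apart from the others by Dixon's criterion, where chance gives about 1 in 20, or 10.6. Among the 10 integrin genes this was Itgb1 in CP CML mouse 1 (341 CPM, next 282). Among the other genes it was Itga8 in BC CML mouse 6 (2.62 CPM, next 1.3) and Cdh1 in CP CML mouse 8 (3.21 CPM, next 1.83). Within the BC CML group, mouse 6 also had the highest Rapgef1 (310 CPM), Stk4 (608 CPM), Lims1 (263 CPM), Smad4 (176 CPM) and megakaryocyte and platelet sum (7.66 CPM, next 4.24). In the same group, mouse 2 had the highest Pxn (142.4 CPM) and Gata3 (86.9 CPM) and the fewest reads (16145537, next 18319039). In CP CML, Smad2 was high in mouse 2 (81.3 CPM) and Tbx21 low in mouse 7 (24.5 CPM, next 34.8).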

How the results depend on the processing

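All 9 called integrin genes kept their direction and their call under the 7 alternatives and with each of the 14 mice left out, and Itga4 was not called in any of these (−0.07 to 0.00). The log2 fold change ran from 1.79 to 2.12 for Itga1, from −1.62 to −1.53 for Itga6, from 1.15 to 1.22 for Itgav and from 0.31 to 0.41 for Itgae. The genes called over the table were 7986, with 7280 to 8719 over the alternatives and 7721 to 7966 with a mouse left out; the median log2 fold change of all genes was −0.02 to −0.00 under other scalings, and 0.03 over the 17599 genes tested with no filter. Replicate numbers gave no pairing (mean correlation of deviations −0.024 over 6 pairs, of which 2 correlated best with their own number). With the replicate block, on the mice numbered 1 to 6, 7280 genes were called, and of the other chains 9 in place of 12, of the activation list 26 in place of 28 and of the ligands 7 in place of 9. The Itgb1 to Itgb7 balance was 0.06 to 0.11 with another prior count or the block and −0.03 to 0.12 with a mouse left out, past the threshold in none. Calls near the threshold depended on single mice: Itga2 lost its call (log2 fold change 0.26 to 0.40, adjusted p up to 0.104) with library size alone, no filter, the block, or without CP CML mouse 2, 3, 5, 6 or 7 or BC CML mouse 1, 2, 4, 5 or 6; Itgad (0.49 to 0.94, up to 0.158) with no filter, the block, or without CP CML mouse 2, 4, 5 or 8 or BC CML mouse 2, 3 or 4; Vcam1 (0.63 to 0.97, up to 0.146) with no filter, the block, or without CP CML mouse 1, 2, 4, 5 or 6 or BC CML mouse 2, 3 or 4; Icam1 (−0.19 to −0.13, up to 0.0995) with DESeq2, RLE factors, the CPM filter, the block, or without CP CML mouse 1, 2, 5, 6 or 8 or BC CML mouse 1, 3, 5 or 6; Rasgrp2 (−0.30 to −0.19, up to 0.0785) with no filter, the block, or without CP CML mouse 5 or 6 or BC CML mouse 4, 5 or 6; and Itga9 and Gata3 with the block. Calls were gained by Col1a1 without BC CML mouse 1 or 5 (−0.62 and −0.64), Rapgef1 without CP CML mouse 2 and Itgb1bp1 without CP CML mouse 5.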

Other observations

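The integrin α chains fall into a class with an extra ligand-binding I domain and a class without it, a grouping applied here after the values were seen and given without a test. Of the 9 chains with the domain, 8 were tested, and 7 were higher in BC CML, 0 lower and 1 not called, with a median log2 fold change of 0.59, beside 32.6% higher over all genes tested. Of these 7, Itga2 and Itgad lost their call with any of 10 and 7 of the 14 mice left out, and Itgam, Itgax and Itgad rose beside the myeloid list (11 of 12 genes higher) and the NK list (6 of 6 tested genes higher), whose part was not tested. Of the 9 without it, 4 were higher, 3 lower and 2 not called, with a median of 0.07. The genes of Itgam, Itgax and Itgad lie next to each other on chromosome 7 with gaps of 1.4 and 4.0 kb, and Itgal lies 727.5 kb away on the same chromosome. Itga2 and Itga1 are neighbours on chromosome 13 with a gap of 26.0 kb, and differed in size of change (log2 fold changes 0.33 and 2.02).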
